A study of Homo sapiens with 6 samples.

Results

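The genes described here are 9 factors that make or trim the 3′ end of histone mRNA or switch on histone genes, SLBP, NPAT, CASP8AP2, ZNF473, LSM10, LSM11, CPSF3, SYMPK and ERI1. They were taken by gene name from the deposited gene count table, which lists 62754 genes, and all 9 were found. A member would have been reported as low if it lacked 10 counts in 3 libraries, and 0 of the 9 did. Each had between 102 and 4004 counts per library. HK-2, an immortalised human proximal tubule epithelial cell line, was given Cisplatin, a platinum drug that crosslinks DNA and injures tubular cells. The CP+siNC group received a negative control siRNA and the CP+siNAT10 group an siRNA against NAT10, and mRNA was sequenced in 3 libraries of each. Both groups received Cisplatin, so no library shows untreated cells, and the labels give no dose or time. The paper states a concentration and a duration selected for its later HK-2 experiments, and its RNA sequencing methods repeat neither. Total counts were 19321665, 21602988 and 19464027 in CP+siNC and 20793709, 21531774 and 25192736 in CP+siNAT10.

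Most mRNAs end in a poly(A) tail, but the mRNAs of replication-dependent histones end in a conserved stem-loop that SLBP, the stem-loop binding protein, holds from processing to translation. The U7 small nuclear ribonucleoprotein pairs with the RNA downstream of the stem-loop and brings the endonuclease that cuts between them, during S phase, when new DNA has to be packed into nucleosomes. Histone genes can also use polyadenylation sites further downstream, mainly in cells that do not divide or that process the stem-loop poorly.

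The kit captured mRNA and kept strand, with random molecular identifiers in its first-strand primers. Levels are given as CPM, in which counts are brought to a common library size after TMM scaling. The quasi-likelihood test of edgeR was run on the 19874 genes with enough counts, with Benjamini-Hochberg (BH) adjustment over all of them. A gene was called higher or lower at an adjusted p under 0.05. Nothing in the labels says that the 3 libraries of a group came from separate cultures, so p-values measure only the spread between these libraries, which may be technical. NAT10, the RNA acetyltransferase targeted by the siRNA, was measured at 75.8, 71.4 and 73.2 CPM in the CP+siNC libraries and at 41.3, 40.5 and 42.4 CPM in the CP+siNAT10 libraries (log2 fold change -0.82 ± 0.0426 as standard error, BH-adjusted p = 2.79e-15 by edgeR's quasi-likelihood test). Every CP+siNAT10 library lay below every CP+siNC library, as the labels state. The 14 markers chosen for HK-2 cells summed to 2187 to 2247 CPM in CP+siNC and 2135 to 2164 CPM in CP+siNAT10, without overlap. The keratin gene KRT8 was the most abundant at 1455 CPM in CP+siNC, and KRT18, KRT19, KRT7, CDH2, PAX8 and GGT1 were also present. Calls among them ran both ways, with log2 fold changes of -0.36 for KRT18, -0.28 for GGT1, -0.15 for KRT7, 0.59 for PAX8 and 0.20 for CDH2. The markers of mature proximal tubule LRP2, CUBN, ANPEP and SLC34A1 were near 0, SLC22A6 was at 0 in all 6 libraries, and CDH1 was near 0. Endothelial markers summed to at most 0.514 CPM in any library. The 6 fibroblast markers summed to 21.9 to 23.6 CPM in CP+siNC and 23.4 to 30.2 CPM in CP+siNAT10, nearly all of it from LUM, which was not called, and COL1A1, which was higher at a log2 fold change of 0.38. Of the 4 leukocyte markers CD3E and LYZ were under 1 CPM in every library. PTPRC had means of 0.418 and 0.824 CPM and was called higher, with 1.33 CPM in CP+siNAT10 replicate 2. CD68, a lysosomal gene, was measured at 207 CPM in CP+siNC and 272 CPM in CP+siNAT10, close to the whole of the list's sum of 198 to 288 CPM. The part of these markers in the differences between groups was not tested.

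Differences among the 9 factors were small and ran in both directions. SLBP, LSM11 and ERI1 were lower with NAT10 siRNA, CPSF3 and SYMPK were higher, and NPAT, CASP8AP2, ZNF473 and LSM10 were not called. These 5 calls among 9 genes stand beside 44.1% called among all tested genes. By direction, 2 of 9 were higher, where 21.8% of all tested genes were, and 3 of 9 were lower, where 22.3% were. No factor was both called and changed by over 1 on the log2 scale, while 2.33% of tested genes were. The CPM values of the groups did not overlap for 6 of the 9, against 51.4% of tested genes. The median size of the log2 fold change was 0.15 over the 9 factors and 0.21 over all tested genes, and the signed median was 0.013 and 0.007. In bulk RNA, a smaller share of cells in S phase and less mRNA per cell cannot be told apart.

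**Figure D1:**
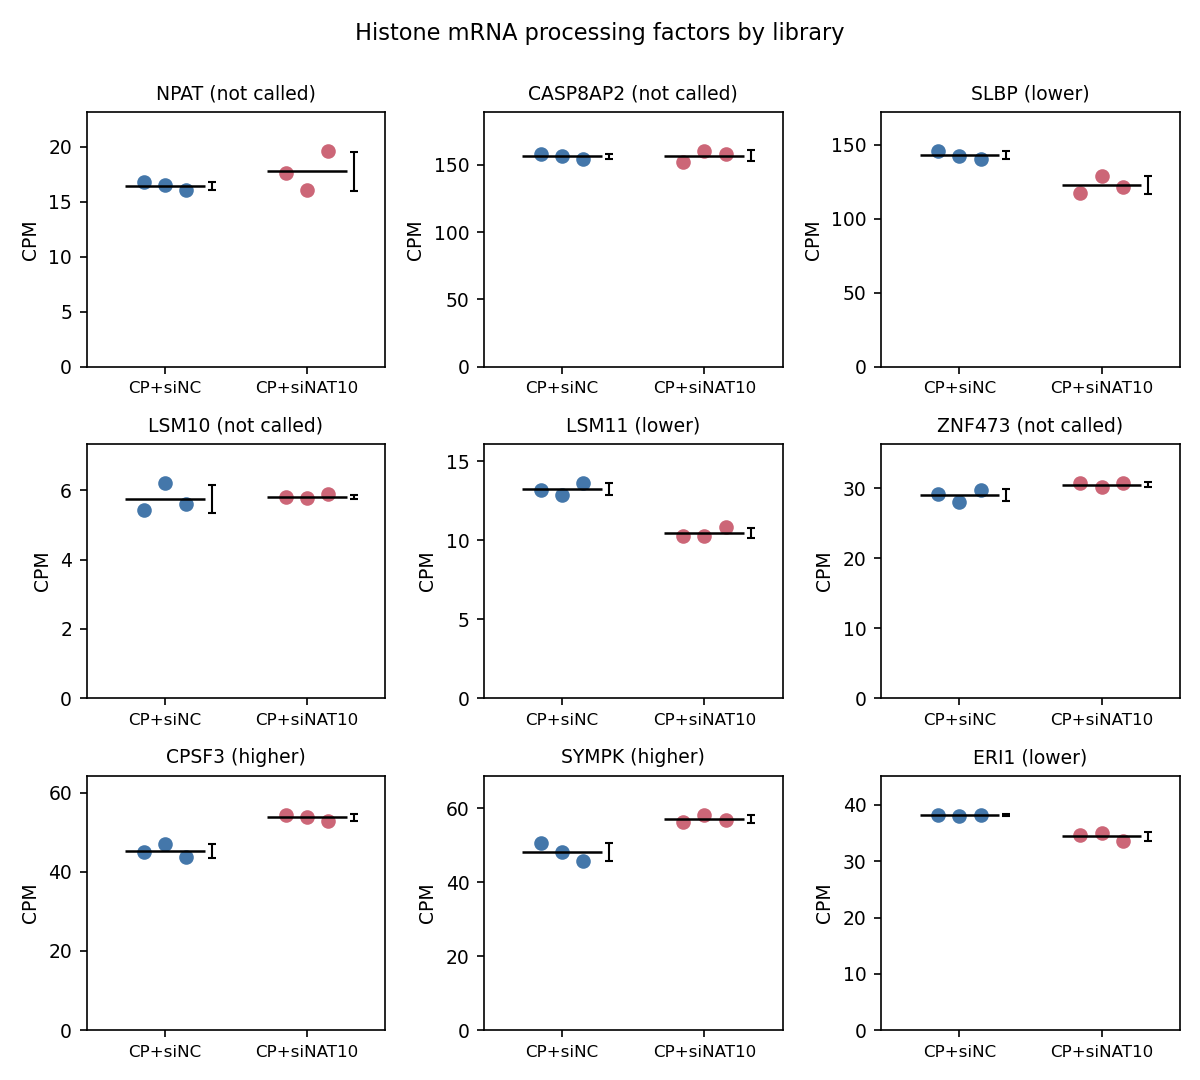
CPM of each of the 9 factors in the 3 CP+siNC libraries (blue) and the 3 CP+siNAT10 libraries (red), with the group mean as a line, its SD as a bar beside the points and the call in each title. Every axis starts at 0, and the groups separate for SLBP, LSM11, ZNF473, CPSF3, SYMPK and ERI1 and overlap for NPAT, CASP8AP2 and LSM10.

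**Figure D2:**
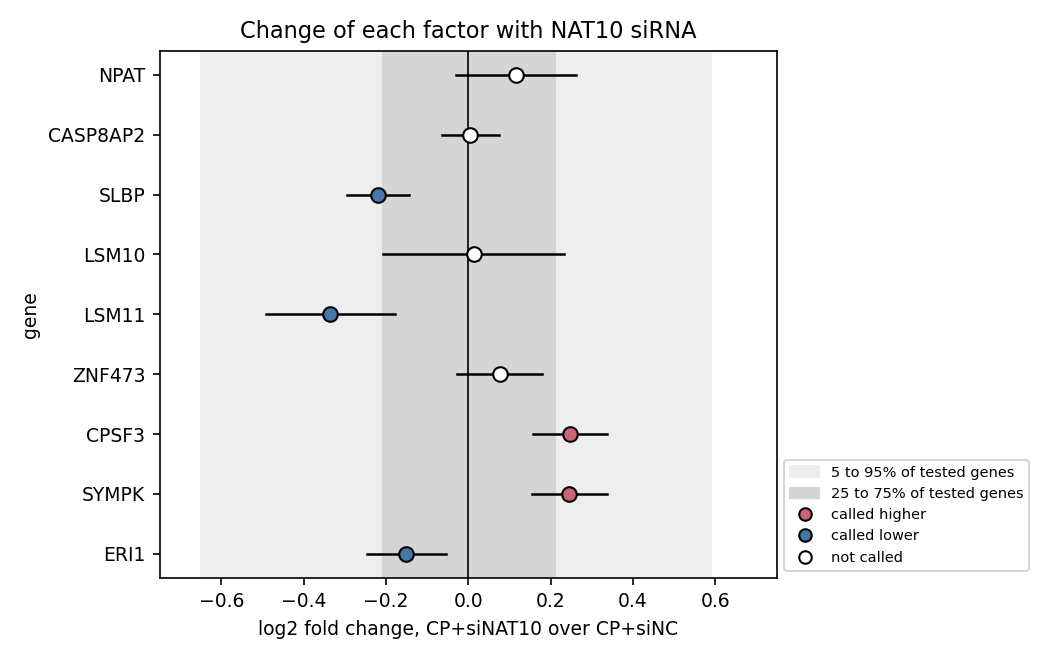
Log2 fold change of CP+siNAT10 over CP+siNC for each factor (points, coloured where called) with its 95% confidence interval (lines), over grey bands that hold the middle 50% and 90% of all tested genes. The largest changes, -0.34 for LSM11 and 0.25 for CPSF3, lie inside the wider band of -0.65 to 0.59.

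SLBP (ENSG00000163950, chr4:1692731-1712344 on GRCh38, minus strand) was the most strongly expressed factor per length. It was measured at 146, 143 and 141 CPM in CP+siNC and at 118, 129 and 122 CPM in CP+siNAT10. The 3 libraries with NAT10 siRNA were all lower, with replicate 2 nearest to the controls. The means were 143 ± 2.64 and 123 ± 5.85 CPM (SD, n = 3 per group), a level of 85.9% of control (log2 fold change -0.22 ± 0.0369 as standard error, BH-adjusted p = 1.55e-05 by edgeR's quasi-likelihood test). Of all tested genes, 48.2% changed by more than SLBP in size. The 3 genes of at least 5 CPM whose profile over the 6 libraries was closest to that of SLBP were TRIM65, LIG1 and STAT2, with distances of 0.0327, 0.0389 and 0.0488 between log2 CPM values taken relative to the CP+siNC mean. The median distance over 12303 genes was 0.499.

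The stem-loop that SLBP binds was read from the transcripts of the histone genes in GENCODE 29, on GRCh38, with the histone stem-loop consensus of 16 bases. Of the 26 tested histone genes 23 had transcripts there, and 17 of these held the stem-loop, which began 23 to 56 bases after the stop codon, in the 3′ UTR. There were 6 different stem-loops among them, and a gene is shown for each because they are the element on which the factors act. The genes were picked for their stem-loop, and each gene shown was called higher with NAT10 siRNA. The 16 bases of the stem-loop are in capitals with 5 bases on each side.
H2BC5: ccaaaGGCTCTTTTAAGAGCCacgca
H2AC6: ccaaaGGCTCTTTTCAGAGCCcccct
H2AC11: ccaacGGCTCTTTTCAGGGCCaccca
H3C6: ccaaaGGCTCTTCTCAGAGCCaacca
H4C14: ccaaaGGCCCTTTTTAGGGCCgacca
H4C8: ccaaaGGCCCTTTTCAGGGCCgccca
These lie at chr6:26158582-26158607, chr6:26124664-26124689, chr6:27133510-27133535 and chr6:26225591-26225616 on the plus strand of chromosome 6, at chr1:149833027-149833052 on the plus strand of chromosome 1 and at chr6:26285126-26285151 on the minus strand of chromosome 6. The stem-loop shown for H2AC6 was shared by 10 of the 17 genes. Of the 17 genes 13 were called higher, as were 6 of the 9 tested genes without a stem-loop found or without a transcript. Over all tested genes 21.8% were higher. In GENCODE 29 the longest transcript stretch past the stem-loop, among transcripts that hold it, was over 100 bases in 15 of the 17 genes. It reached 1862 bases in H3C6 and was 39 bases in H2BC5 and H2AC13. Of the 2 transcripts of H2BC5, 1 lacks the stem-loop, and its deposited gene position runs on to chr6:26171349. Other deposited gene positions can end earlier, and that of H3C6 ends at chr6:26225616, the last base shown for it.

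Among the genes that switch on histone transcription, NPAT (ENSG00000149308, chr11:108157215-108222638, minus strand) encodes the cyclin E and CDK2 substrate that gathers at histone loci and activates them. It was measured at 16.8, 16.5 and 16.0 CPM in CP+siNC and at 17.6, 16.1 and 19.6 CPM in CP+siNAT10. Replicate 2 with NAT10 siRNA lay among the controls and replicate 3 above all other libraries, so the groups overlapped, with an SD of 0.371 CPM in CP+siNC and 1.78 CPM in CP+siNAT10. The difference was not called (log2 fold change 0.12 ± 0.0717 as standard error, BH-adjusted p = 0.201 by edgeR's quasi-likelihood test), and its 95% interval of -0.03 to 0.26 reaches from near 0 to a rise as large as those of CPSF3 and SYMPK. The estimate was 0.03 without CP+siNAT10 replicate 3. Among the closest profiles were those of FASTKD2 and LIX1L, with distances of 0.0794 and 0.0878.

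NPAT lies head to head with ATM, the kinase gene that responds to DNA breaks. The nearer of the RefSeq starts of ATM is 429 bases from that of NPAT on chromosome 11. ATM was measured at 37.8, 38.1 and 37.8 CPM in CP+siNC and at 53.7, 52.5 and 52.6 CPM in CP+siNAT10. All 3 libraries with NAT10 siRNA were above the controls (log2 fold change 0.48 ± 0.0438 as standard error, BH-adjusted p = 3.83e-10 by edgeR's quasi-likelihood test). The ATM count per NPAT count needs no scaling between libraries. It was 2.25, 2.31 and 2.36 in CP+siNC and 3.06, 3.27 and 2.68 in CP+siNAT10, 1.30-fold higher in the geometric mean and without overlap between groups, given without a test because the ratio was chosen after both genes' values were seen. Promoters were taken from 250 bases before to 50 after the RefSeq start on GRCh38.p14. The further ATM promoter, at chr11:108223075-108223374, does not overlap that of NPAT. The nearer ATM promoter and that of NPAT share 72 bases, in which 69.4% of bases are G or C. That shared stretch holds a match to CCAAT, here in capitals on the other strand, in a 29-base window of the plus strand at chr11:108222867-108222895 that runs past the shared stretch and that GENCODE 29 places in the 5′ UTR of ATM transcripts.
NPAT and ATM: aagtcgctggccATTGGtggacatggcgc
Promoters were found for 7 of the 9 factors, and ZNF473 and ERI1 had none. CCAAT on either strand was present in the promoters of NPAT, CASP8AP2 and LSM10 and is held by 34.6% of 35116 promoters. The letters TTTCCCGC, TTTCGCGC, TTTGCCGC or TTTGGCGC, forms of the E2F motif, were present on either strand in those of CASP8AP2 and CPSF3, against 3.31% of all promoters. Neither motif was found in those of SLBP, LSM11 and SYMPK. A match describes the letters and no bound factor.

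CASP8AP2 (ENSG00000118412, chr6:89829894-89874436, plus strand), known as FLASH, holds LSM11 and the cleavage complex together at the histone locus. It was measured at 158, 156 and 154 CPM in CP+siNC and at 152, 160.3 and 158 CPM in CP+siNAT10. The lowest and the highest library both carried NAT10 siRNA, with the controls between them. With up to 4004 counts per library this was the most deeply counted factor, and its interval was narrow. The log2 fold change of 0.0052 had a 95% interval of -0.06 to 0.07, so a change the size of that of SLBP lay outside it. The 3 closest profiles, RBM41, BRPF3 and SARNP, were equally flat, with log2 fold changes of 0.0098, -0.0011 and 0.014.

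In the U7 particle, LSM10 and LSM11 take the places that SmD1 and SmD2 have in the ring of spliceosomal particles. LSM11 (ENSG00000155858, chr5:157743712-157760709, plus strand) was measured at 13.2, 12.9 and 13.7 CPM in CP+siNC and at 10.3, 10.3 and 10.8 CPM in CP+siNAT10. The groups stood well apart and each was tight. The means were 13.3 ± 0.383 and 10.5 ± 0.316 CPM (SD, n = 3 per group), 79.1% of control (log2 fold change -0.34 ± 0.0766 as standard error, BH-adjusted p = 0.000654 by edgeR's quasi-likelihood test), and 30.4% of tested genes changed by more in size. LSM10 (ENSG00000181817, chr1:36391238-36397908, minus strand) had the fewest counts, 102 to 149 per library. Its levels were 5.42, 6.21 and 5.61 CPM in CP+siNC and 5.79, 5.76 and 5.88 CPM in CP+siNAT10. The controls spanned the libraries with NAT10 siRNA, and the interval of -0.21 to 0.23 around a log2 fold change of 0.013 means that a change of the size seen for CPSF3 or SLBP is near the limit of what this depth could show. The count of LSM11 per count of LSM10 was 2.44, 2.08 and 2.44 in CP+siNC and 1.78, 1.79 and 1.85 in CP+siNAT10, a ratio also chosen after the values were seen. All 3 ratios with NAT10 siRNA were below the controls.

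ZNF473 (ENSG00000142528, chr19:50025714-50053414, plus strand), the zinc finger protein ZFP100, bridges SLBP on the stem-loop and LSM11 in the U7 particle. It was measured at 29.2, 28.1 and 29.8 CPM in CP+siNC and at 30.8, 30.2 and 30.7 CPM in CP+siNAT10. All 3 libraries with NAT10 siRNA were above the controls, by less than the test could separate (log2 fold change 0.08 ± 0.0503 as standard error, BH-adjusted p = 0.229 by edgeR's quasi-likelihood test). A gene on the other strand, ENSG00000269091, covers 7807 bases of it with counts equal to 21.2% of those of ZNF473, and VRK3, called higher at a log2 fold change of 0.37, overlaps its start by 223 bases on that strand. Whether the counting used strand is not stated, so reads of these neighbours cannot be told apart from those of ZNF473.

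CPSF3, the endonuclease that cuts both histone and polyadenylated pre-mRNA, and SYMPK, the scaffold that carries it were both higher. CPSF3 (ENSG00000119203, chr2:9423651-9473101, plus strand) was measured at 44.9, 47.0 and 43.7 CPM in CP+siNC and at 54.5, 53.8 and 52.9 CPM in CP+siNAT10. The lowest library with NAT10 siRNA was above the highest control. The level was 119% of control (log2 fold change 0.25 ± 0.0440 as standard error, BH-adjusted p = 3.41e-05 by edgeR's quasi-likelihood test). SYMPK (ENSG00000125755, chr19:45815410-45863144, minus strand) was measured at 50.5, 48.2 and 45.8 CPM in CP+siNC and at 56.2, 58.3 and 56.7 CPM in CP+siNAT10. Here too the groups did not overlap, and the level was 119% of control (log2 fold change 0.25 ± 0.0443 as standard error, BH-adjusted p = 4.03e-05 by edgeR's quasi-likelihood test). CPSF2, the inactive partner with which CPSF3 forms a dimer, was measured at 79.7 ± 3.52 and 79.4 ± 1.09 CPM (SD, n = 3 per group) and was not called. The count of CPSF3 per count of CPSF2 was 0.541, 0.619 and 0.547 in CP+siNC and 0.681, 0.672 and 0.677 in CP+siNAT10, a ratio also chosen after the values were seen. Its 3 values with NAT10 siRNA were all above the controls.

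ERI1 (ENSG00000104626, chr8:9002147-9116746, plus strand) is the exonuclease that trims the end of histone mRNA after cleavage and takes part in its decay. It was measured at 38.3, 38.0 and 38.2 CPM in CP+siNC and at 34.6, 35.1 and 33.5 CPM in CP+siNAT10. The controls were nearly equal and all libraries with NAT10 siRNA were lower. The level was 90.1% of control (log2 fold change -0.15 ± 0.0470 as standard error, BH-adjusted p = 0.00995 by edgeR's quasi-likelihood test), the weakest of the 5 calls. The call was lost in edgeR's quasi-likelihood test with scaling by library size only (BH-adjusted p = 0.0571), in DESeq2 (0.0588) and in edgeR without CP+siNAT10 replicate 3 (0.0535).

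Levels of different genes were compared as CPM per kilobase of the deposited gene length. In CP+siNC the order was SLBP at 76.0 ± 1.40 CPM per kb (SD, n = 3), CASP8AP2 at 19.2 ± 0.256, CPSF3 at 12.3 ± 0.456 and ERI1 at 5.98 ± 0.0258 CPM per kb. SYMPK at 4.57 ± 0.221, ZNF473 at 4.21 ± 0.124, LSM10 at 3.82 ± 0.276, NPAT at 2.18 ± 0.0493 and LSM11 at 2.02 ± 0.0583 CPM per kb followed. Of neighbours in this order, the libraries of ZNF473 and LSM10 overlapped and all other pairs were separate. In CP+siNAT10 SYMPK at 5.42 ± 0.104 CPM per kb stood beside ERI1 at 5.39 ± 0.125 CPM per kb with overlapping libraries, and the other places were as in CP+siNC. SLBP mRNA was thus far above the mRNAs of the U7 proteins in both groups, at 65.2 ± 3.10 CPM per kb against 3.86 ± 0.0389 for LSM10 and 1.60 ± 0.0482 for LSM11 in CP+siNAT10.

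**Figure D3:**
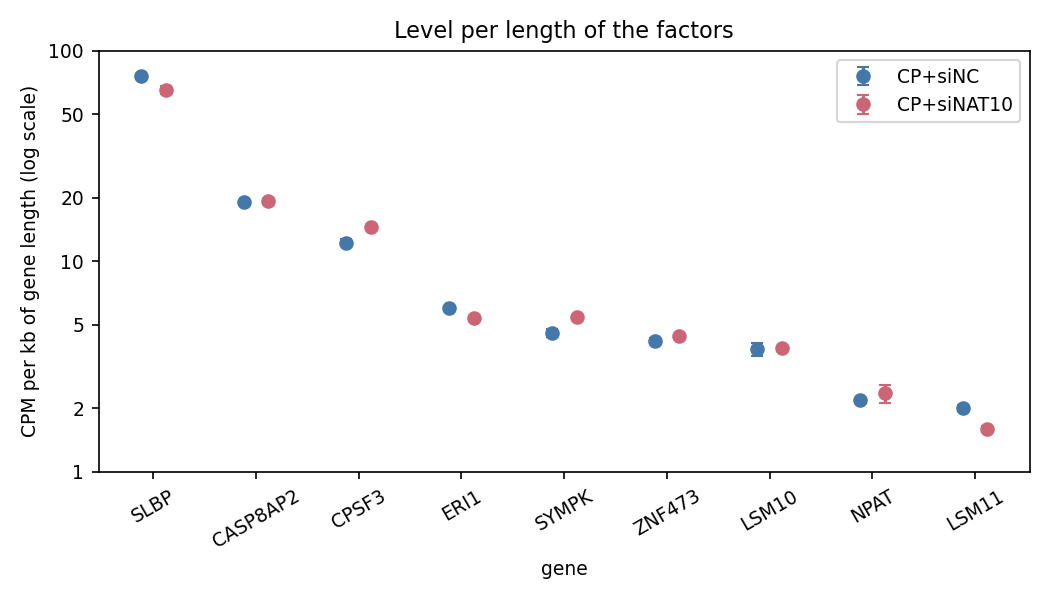
Level of each factor in CPM per kb of the deposited gene length, on a log axis, as the mean of 3 libraries with its SD, for CP+siNC (blue) and CP+siNAT10 (red). SLBP leads in both groups at 76.0 and 65.2 CPM per kb, and LSM11 is last at 2.02 and 1.60.

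Lists of genes that work with the factors were then counted against all tested genes, of which 21.8% were higher and 22.3% lower, with a median log2 fold change of 0.007. The partners of U7 and of the histone cleavage complex had 7 of 9 genes lower, 0 higher and a median of -0.18. SNRPG, SNRPB and SNRPF, proteins of the Sm ring that U7 shares with the spliceosomal particles, had log2 fold changes of -0.51, -0.27 and -0.18, and CPSF2 and CSTF2T were not called. RNU7-1, the gene of the U7 RNA itself, fell from 18.4 ± 2.31 to 10.8 ± 1.53 CPM (SD, n = 3 per group, log2 fold change -0.78). It is 63 bases long, lies wholly inside C12orf57 on the same strand and inside ENSG00000272173 on the other, and has no poly(A) tail when mature, so its reads cannot be told apart from those of its neighbours, which were also lower at -0.46 and -0.45. The other cleavage and polyadenylation factors had 6 of 16 higher, 2 lower and a median of 0.06. SSU72 at 0.39, NUDT21 at 0.28, WDR33 at 0.22 and CPSF1 at 0.16 were higher, the last 2 being subunits that work beside CPSF3 on poly(A) sites. The 2 lower genes were PCF11 and PABPN1, named after their values were seen.

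The lists for later steps had calls in both directions, beside 21.8% higher and 22.3% lower over all tested genes. Of 7 genes for cap binding, export and translation of histone mRNA, 4 were lower and 1 higher, with a median of -0.16. MIF4GD, the protein that ties SLBP to the translation machinery, fell from 7.83 ± 0.356 to 4.83 ± 0.913 CPM (log2 fold change -0.68), and shares 136 bases with MRPS7 on the other strand. MRPS7 itself fell from 115 to 69.5 CPM (log2 fold change -0.73), and with strand use unknown, reads of the pair in the shared bases cannot be told apart. The cap-binding gene NCBP2 was lower at -0.24, SRRT at -0.17, and NCBP3 was higher at 0.20. Of 16 genes of histone mRNA decay, 5 were higher and 2 lower, with a median of -0.02 and a range of -0.44 to 0.88. The genes named for it are those the naming rule picked, not those with the largest change. The decapping enzyme gene DCP2 was lower at -0.44 and the uridylyl transferase gene TUT7 at -0.13, while LSM7 and LSM6, of the ring that binds oligouridylated ends, were higher at 0.30 and 0.21. Of 12 genes of SLBP turnover, 6 were lower, 1 was higher and the median was -0.17, with a range of -0.73 to 0.20. DCAF11, a substrate receptor of a CUL4 ligase, was lower at -0.66, CDK1 at -0.46 and the casein kinase subunit gene CSNK2A2 at -0.38.

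Beside NPAT, 5 of 13 genes of histone gene transcription and the locus body were higher and 2 lower, with a median of 0.07. ATM led, followed by CDC25A at 0.28, GON4L at 0.27 and YY1 at 0.26. CCNE2 and CDK2, which with CCNE1 form the kinases that act on NPAT, were lower at -0.16 and -0.15, and both were named after the values were known. Of 42 DNA replication genes, 16 were lower and 9 higher, with a median of -0.07. The ribonucleotide reductase gene RRM2 was lower at -0.73 and the licensing factor gene CDT1 at -0.57, while MCM5 was higher at 0.52 and POLE at 0.37. Of 21 histone chaperones, 7 were higher and 5 lower, with a median of 0.02, and CABIN1 at 0.58, IPO4 at 0.30, UBN1 at 0.30 and RBBP4 at -0.28 had the smallest p. Replacement histones, most of whose mRNAs are only polyadenylated, had 4 of 11 tested genes higher and 3 lower, and 2 of the 13 listed had too few counts. MACROH2A2 rose from 12.8 to 26.4 CPM (log2 fold change 1.05), while H3-3B was lower at -0.30 and H2AZ1 at -0.29.

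**Figure D4:**
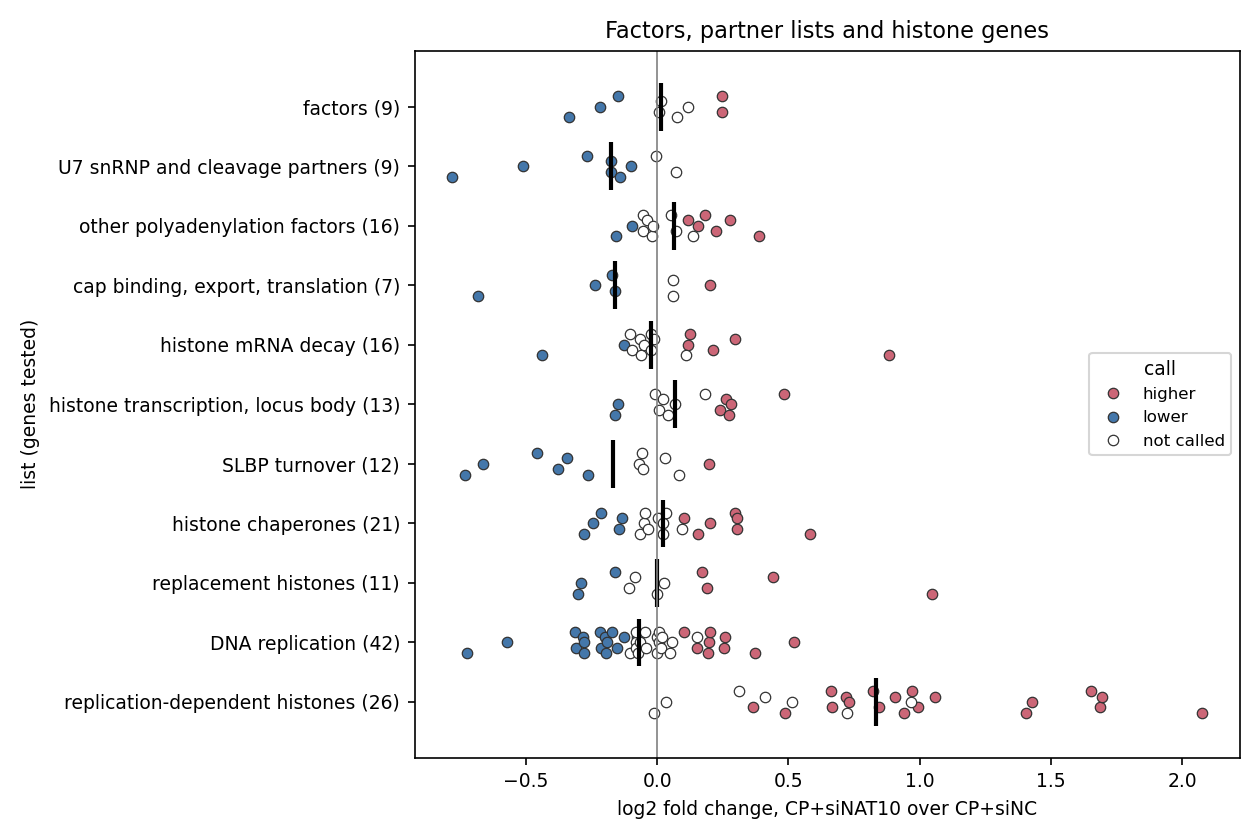
Log2 fold change of CP+siNAT10 over CP+siNC for every tested gene of the 9 factors, of 9 lists of related genes and of the replication-dependent histones, with the number tested in brackets. Points are red where called higher, blue where called lower and white where not called, and black bars mark medians, which run from -0.18 for the U7 partners to 0.83 for the histone genes.

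Of 69 replication-dependent histone genes 43 had too few counts to test, and of the 26 tested 19 were higher and 0 lower with edgeR, with a median of 0.83, where 21.8% of all tested genes were higher and 22.3% lower. Another 7 were not called, and 7 of the 19 passed both limits. Of the 26 tested genes 7, H2BC8 and H2BC9 among them, passed the filter on low counts only with the CP+siNAT10 libraries, so their inclusion favoured a higher level there. They hold 4 of the 19 higher genes and 3 of the 7 past both limits. Among the 19 genes that passed by the CP+siNC libraries alone, 15 were higher and 0 lower, with a median of 0.73. The summed level of all 69 genes does not depend on the filter. It was 59.2, 60.6 and 60.6 CPM in CP+siNC and 119, 113 and 128 CPM in CP+siNAT10. The controls were nearly equal and every library with NAT10 siRNA was far above them, by 2.00-fold in the mean. Set against SLBP, the summed histone count per SLBP count went from 0.405, 0.425 and 0.431 in CP+siNC to 1.01, 0.872 and 1.05 in CP+siNAT10. The geometric mean of the ratio was 2.32-fold higher, a description only, since the ratio was chosen with both values known.

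H4C14 had the highest mean of the histone genes in CP+siNC and H2BC5 in CP+siNAT10, the latter at 17.5 CPM. H2BC5 rose from 4.57, 3.69 and 4.26 CPM in CP+siNC to 17.1, 16.3 and 19.1 CPM in CP+siNAT10 (log2 fold change 2.08). Its stem-loop, printed above, is in 1 of its 2 transcripts, and counts per gene do not separate them. H2BC12 was at 4.90 ± 0.641 CPM in CP+siNC and at 15.4 ± 0.269 CPM in CP+siNAT10 (log2 fold change 1.65). Among called genes whose mean reached 1 CPM, H2BC11 and H2AC6, at 1.69 and 1.69, stood between H2BC5 and H2BC12 in log2 fold change. H4C14 rose by 0.73 and H1-2 by 0.99. Histone genes have near-identical copies between which reads could have been split, so single genes are uncertain. How reads that match several copies were counted is not stated, and its effect on the sum was not tested. The libraries were made from captured mRNA, and whether the counted transcripts ended at the stem-loop or in a poly(A) tail cannot be told apart from counts per gene.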

How the data were processed

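The deposited values are raw counts per gene, made by the authors from aligned reads, with gene names, positions and lengths. The submitters' processing notes name Trimmomatic 0.36, STAR 2.5.3a, featureCounts of Subread 1.5.1, edgeR 3.12.1 and GRCh38. The paper gives correction for duplicates as the purpose of the molecular identifiers. Whether the deposited counts were made from merged reads, whether strand was used in counting and which annotation release was used are not stated. All 6 libraries were used, grouped by their labels.

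The analysis used R 4.3.3 and edgeR 4.0.16. Genes were kept with filterByExpr (minimum count 10, minimum total 15), which left 19874, TMM was used for scaling, and the group was the only term given to glmQLFit and glmQLFTest. The biological coefficient of variation was 3.00%. A standard error is the size of the log2 fold change over the square root of F. Library pairs differed by a chi-square per gene of 1.74 to 2.55 within a group and 18.6 to 23.0 across groups, so no library was a copy of another. Alternatives were RLE, upper quartile and library size scaling, no filter, at least 1 CPM in 3 libraries, the replicate number as a block, DESeq2 1.42.0 and leaving out each library.

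The members and gene lists were chosen with earlier results of these data known. Named genes were the 9 members, NAT10, up to 4 called genes per list with the smallest p and at least 5 CPM, the 4 histone genes with the largest mean over both groups and the 4 with the largest change, and the closest profiles. Other genes, such as CPSF2, CSTF2T, CCNE1, CCNE2, CDK2, PCF11, PABPN1, H2BC8, H2BC9, those shown for a stem-loop and overlapping neighbours, were named after values were seen. The 4 ratios of counts and the stem-loop and promoter searches were chosen after the values were seen. Of 228 genes looked up in GENCODE 29, 224 were found, all overlapping the deposited position on the same strand. Promoters are from RefSeq. Sequences were read with Python 3.11.15 and pandas 2.3.3, and plots drawn with matplotlib 3.10.9.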

Additional observations from a re-analysis of the deposited data

How the results depend on the processing

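SLBP, LSM11, CPSF3 and SYMPK kept their direction and their call under all 13 alternatives, with log2 fold changes of -0.26 to -0.18, -0.36 to -0.30, 0.22 to 0.28 and 0.21 to 0.28. NPAT and ZNF473 stayed without a call at positive values, NPAT from 0.03 to 0.18 with an adjusted p down to 0.0504. ERI1 lost its call with library size only (-0.11), DESeq2 (-0.15) and without CP+siNAT10 replicate 3 (-0.13, with -0.16 as the lowest value on leaving out a library), and the cause was not tested. CASP8AP2 and LSM10, neither called, changed sign on leaving out single libraries, from -0.00964 to 0.0275 for CASP8AP2 and -0.0286 to 0.0716 for LSM10. Library size only shifted the median of all genes by 0.04.

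The number of genes past both limits was 464, and 711 with no filter on low counts and 299 with at least 1 CPM in 3 libraries, where the number of genes tested changed. With library size only, 1 gene of the U7 partners, 2 of cap binding and 2 of SLBP turnover were higher. Lower genes of the U7 partners numbered 6 with library size only, no filter and DESeq2. On leaving out a library they ran from 5, without CP+siNAT10 replicate 2, to 7. Among other cleavage and polyadenylation factors 1 was lower with library size only, no filter and DESeq2, and 1 to 2 on leaving out a library. On leaving out a library, higher genes of SLBP turnover ran from 1 to 2, lower genes of decay from 2 to 4 and lower chaperones from 3 to 4. Higher replication-dependent histone genes numbered 14 with DESeq2, 17 with the replicate block and 15 without CP+siNC replicate 1 or without CP+siNAT10 replicate 3. They numbered 21 with library size only and with no filter, and 0 were lower under any of these.

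No pairing of the libraries by replicate number was seen, though correlations among 3 libraries per group cannot exclude it. Same-numbered libraries had correlations of deviations of -0.04, 0.01 and -0.14, and not every library correlated best with its own number. With the replicate block, 4208 genes were higher and 4318 lower, SLBP was at -0.22 and ERI1 at -0.15, and every factor kept its call. Depth limits LSM10 most.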
